A study of Mus musculus with 6 samples.

Results

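The enzymes, transporters and regulators of glycolysis, gluconeogenesis and glycogen metabolism were examined in primary mouse hepatocytes, in a set of 39 genes chosen by gene symbol. All 39 were found among the 23282 genes of the count table. Hepatocytes of C57BL/6N mice (written C57BL6/N in the labels) were isolated by collagenase perfusion and cultured in M199 medium. The 3 control cultures received no treatment, and the 3 others were exposed to recombinant IL-1β protein for 24 h. IL-1β is an inflammatory cytokine released mainly by macrophages, and the labels name no transgene or deletion for either group. The dose given to the sequenced cultures was not stated in the sources used here. RNA was read by QuantSeq 3′ mRNA-Seq, in which reads of 75 nt come from the poly(A) end of each transcript. Nothing states that the 3 samples of a group came from separate animals, so the p-values measure the spread between these samples, which may be technical.

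Glycolysis splits glucose into pyruvate, which cells either oxidize or reduce to lactate, and gluconeogenesis runs the reverse route through a few bypass enzymes. The liver holds both routes and switches between them with feeding and fasting, storing glucose as glycogen and releasing it again. Several steps are carried out by isoenzymes encoded by separate genes, with one form typical of hepatocytes and another of proliferating, inflammatory or non-hepatic cells. The comparison between the groups asked which of these genes differed in transcript level after exposure of hepatocytes to IL-1β.

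A total of 34 genes of the set had enough counts to be tested, and 8 of them passed an adjusted p below 0.05 in edgeR's quasi-likelihood fit over all 11657 genes tested. The 7 genes that rose were Pkm, Pfkfb3, Pklr, Slc2a1, Aldoa, Pgk1 and Gbe1, which is 20.6% of the 34, where 6.97% of all genes tested rose. Khk was the 1 gene that fell, 2.94% of the 34, where 6.44% of all genes tested fell. The increases lay in glucose uptake, in the control of phosphofructokinase, in the aldolase and phosphoglycerate kinase steps, in both pyruvate kinases and in glycogen branching, while no gene of gluconeogenesis passed. The calls of Pgk1 and Gbe1 were lost with upper-quartile and total-count scaling and in most fits with a sample left out. That of Khk was lost without control replicate 1 and without IL-1β replicate 2. The remaining 26 tested genes did not pass, and 5 were too low to test. At an unadjusted p below 0.05, 11 genes were higher and 2 lower.

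A promoter window is shown here for each of the 4 genes with the largest changes among those that passed. Marked in them are short motifs that recur in glucose-regulated and hypoxia-regulated genes. Pkm and Pklr have a second window without the marked motif, and the window shown is the one that holds it. The display therefore does not show how often such promoters hold a motif. Each window runs from 250 bases before a RefSeq transcript start to 50 bases after it, 5′ to 3′ on the gene's strand, in GRCm38.p6. Capitals mark ACGTG or its reverse complement CACGT in Pkm, Pfkfb3 and Slc2a1, the core of the hypoxia response element. In Pklr they mark CACGGG and CCCGTG with 5 bases between them, a form of the carbohydrate response element. The windows are chr9:59656977-59657276 on the plus strand for Pkm, chr2:11553880-11554179 on the minus strand for Pfkfb3, chr3:89136373-89136672 on the plus strand for Pklr and chr4:119108495-119108794 on the plus strand for Slc2a1.
Pkm: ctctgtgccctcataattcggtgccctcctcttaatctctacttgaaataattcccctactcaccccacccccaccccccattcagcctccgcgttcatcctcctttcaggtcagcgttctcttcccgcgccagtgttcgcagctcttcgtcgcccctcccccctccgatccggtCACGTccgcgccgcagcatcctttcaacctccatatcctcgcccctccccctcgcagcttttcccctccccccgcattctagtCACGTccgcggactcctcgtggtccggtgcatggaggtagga
Pfkfb3: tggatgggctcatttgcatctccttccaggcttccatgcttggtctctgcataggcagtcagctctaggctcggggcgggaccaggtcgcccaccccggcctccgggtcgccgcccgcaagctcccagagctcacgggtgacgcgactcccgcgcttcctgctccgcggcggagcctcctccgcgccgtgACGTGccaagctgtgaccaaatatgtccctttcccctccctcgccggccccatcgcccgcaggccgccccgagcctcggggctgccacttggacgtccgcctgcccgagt
Pklr: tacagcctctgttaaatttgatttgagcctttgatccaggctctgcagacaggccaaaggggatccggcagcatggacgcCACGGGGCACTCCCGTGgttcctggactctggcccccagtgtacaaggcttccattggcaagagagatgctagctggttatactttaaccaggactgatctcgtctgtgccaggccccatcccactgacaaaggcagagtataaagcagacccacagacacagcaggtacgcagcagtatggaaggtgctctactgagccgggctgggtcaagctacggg
Slc2a1: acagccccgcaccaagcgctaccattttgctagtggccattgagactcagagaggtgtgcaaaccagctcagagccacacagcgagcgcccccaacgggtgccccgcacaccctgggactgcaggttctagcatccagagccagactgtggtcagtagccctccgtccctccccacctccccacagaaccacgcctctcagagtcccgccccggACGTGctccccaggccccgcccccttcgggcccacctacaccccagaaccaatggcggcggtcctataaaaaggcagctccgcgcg

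In these windows ACGTG occurred 2 times for Pkm, 1 time for Pfkfb3, 1 time for Slc2a1 and 0 times for Pklr, counted on both strands. A second RefSeq window existed for Pkm, Pfkfb3 and Pklr, and it held 0, 2 and 0 occurrences. For Pkm and Pklr this second window lies upstream of the one shown, and that of Pklr does not hold the spaced CACGGG and CCCGTG. The 2 occurrences in the second Pfkfb3 window are a single CACGTG palindrome, which reads as ACGTG on either strand. Promoter windows were given for 37 of the 39 genes, all but Gys2 and Ppp1r3b. ACGTG lay in at least 1 window of 20 of these 37 genes (54.1%), against 21.8% of the 27025 genes with promoters in the same RefSeq set. Genes with more windows have more places for a match. Counted per window, the shares were 40.7% of the 59 windows of the set and 19.6% of all 32851 windows. Among the 8 genes that passed the test ACGTG was found in 6 (75%), namely Aldoa, Khk, Pfkfb3, Pgk1, Pkm and Slc2a1. Of these, Khk fell and the others rose. The 8 genes were picked by the test on these same samples, and no difference in these shares was tested. It lay in 61.5% of the 13 windows of these 8 genes. The palindrome CACGTG, which contains ACGTG on both strands, was present in 8 of the 37 (21.6%) and in 8.09% of all genes. Per window, these shares were 13.6% and 7.15%. CACGGG and CCCGTG at this spacing were found in 1 of 32851 windows, that of Pklr. Only this exact string was searched, so the count does not show how many genes hold other forms of the element. These matches are descriptions of the sequence, and no binding was measured.

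**Figure D1:**
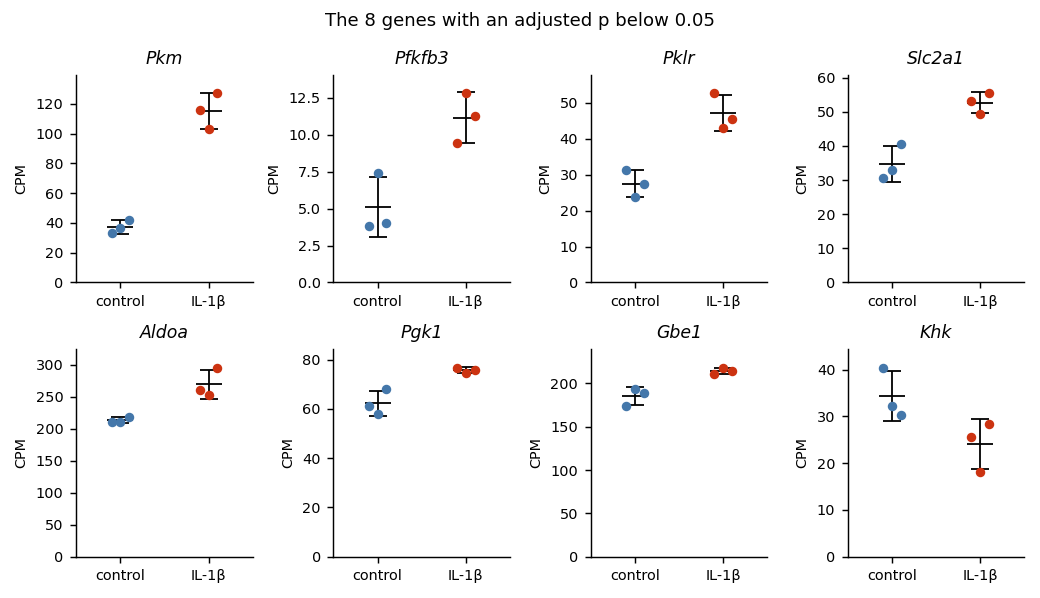
TMM-scaled level (CPM) of the 8 genes that passed, 1 point per sample, with the mean and SD of the 3 samples of each group as horizontal bars and whiskers, and each vertical axis starting at 0. In all 8 genes the 3 control samples (blue) and the 3 IL-1β samples (red) do not overlap. The genes were picked by the test on these same samples, so this adds no support. Of all genes tested, 28.2% had no overlap.

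The final step of glycolysis is the transfer of phosphate from phosphoenolpyruvate to ADP by pyruvate kinase. Pkm encodes the muscle-type enzyme and its M2 splice form, and it lies on chromosome 9 from 59656368 to 59679375 of GRCm38. Levels are given as CPM, counts scaled by library size with edgeR's TMM factors. In the control samples it was at 32.9, 36.7 and 41.9 CPM, and in the IL-1β samples at 116, 103 and 127 CPM. Every IL-1β sample exceeded every control sample by a wide gap. The mean rose from 37.2 ± 4.53 to 115 ± 11.7 CPM (SD, n = 3 each), a 3.11-fold increase (log2 fold change 1.64, standard error 0.10, edgeR adjusted p = 3.49e-12). This was the largest change of the 34 genes tested. Reads from the 3′ end lie downstream of the alternative exon and cannot separate the M1 and M2 forms.

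Pklr encodes the liver and red blood cell pyruvate kinase, and its row spans chromosome 3 from 89136142 to 89146594. The control samples held 31.2, 23.7 and 27.5 CPM and the IL-1β samples 52.6, 42.9 and 45.6 CPM. The groups were again fully apart, at 27.5 ± 3.73 and 47.0 ± 5.0 CPM (SD, n = 3 each). The log2 fold change was 0.77 (standard error 0.12, edgeR adjusted p = 2.92e-05), and omission of any 1 sample left it between 0.68 and 0.88.

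The 3′ end of Pklr overlaps that of Hcn3, a channel gene on the opposite strand. In the count table the rows of both genes do not overlap and lie 180 bases apart, whereas in the GENCODE annotation the genes share 711 bases, and 69.1% of the 75-base stretches near the Pklr transcript ends also lay in Hcn3, 0% of them on the same strand. Hcn3, named here after its values were seen, had 433, 481 and 586 counts in the controls and 891, 850 and 907 after IL-1β, against 332, 265 and 273 and then 492, 447 and 490 counts for Pklr. Hcn3 thus moved in the same direction, with a log2 fold change of 0.87 (edgeR adjusted p = 2.41e-06). The strand setting used in counting was not given in the sources used here, and whether reads of one gene entered the count of the other was not tested.

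Phosphoglycerate kinase, encoded by Pgk1 on the X chromosome (106187100 to 106203699), forms the first ATP of the pathway. Its control samples were at 61.0, 57.9 and 67.9 CPM and its IL-1β samples at 76.7, 74.5 and 75.9 CPM. All IL-1β samples were above all controls, but the step was small, at 62.3 ± 5.12 against 75.7 ± 1.06 CPM (SD, n = 3 each). The log2 fold change was 0.28 (standard error 0.088, edgeR adjusted p = 0.0315). The call depended on the sample set, because the adjusted p was 0.0527 to 0.138 when any sample other than control replicate 3 was left out.

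The other genes between triose phosphates and pyruvate did not pass. Gapdh, encoding glyceraldehyde-3-phosphate dehydrogenase and often used as a reference transcript, was at 37.1 ± 2.42 and 38.3 ± 2.06 CPM (SD, n = 3 each). Its log2 fold change was 0.05, with a 95% interval from -0.17 to 0.26 (edgeR adjusted p = 0.863), and its groups overlapped. The sign of this value turned to -0.0085 with total-count scaling. Near its transcript ends, 58.6% of 75-base stretches also occur in other genes, mostly pseudogenes, so its level is uncertain. Pgam1, the phosphoglycerate mutase, had 136 ± 10.4 and 150 ± 4.67 CPM (SD, n = 3 each), and its log2 fold change of 0.13 did not pass (edgeR adjusted p = 0.305).

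Enolase could not be followed under its own name. The row named Eno1 covers 144 bases, 1.18% of the annotated gene, and held 0, 0 and 0 counts in the controls and 0, 1 and 0 after IL-1β. The rest of the locus stands under a row named Eno1b, from 150237324 to 150248873 on chromosome 4, with 748, 569 and 471 control counts and 664, 585 and 718 IL-1β counts. Both rows named Eno1b, the other being a retrotransposed copy, were singled out after their values were seen. The groups overlapped in the row at the Eno1 locus, with a log2 fold change of 0.20 (edgeR adjusted p = 0.343), and in the copy, at 0.27 (edgeR adjusted p = 0.176). Without control replicate 1, both passed, at edgeR adjusted p of 0.00695 and 0.00259, but with another sample left out the values were as high as 0.745 and 0.526. Of the 75-base stretches near the Eno1 transcript ends, 63.3% also lay in other annotated genes. The handling of multi-mapping reads was not given in the sources used here, so these counts cannot be divided between the locus and its copies.

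In lower glycolysis as a group, 3 of 5 tested genes rose and 0 fell by edgeR, with 3 and 0 at an unadjusted p below 0.05, and DESeq2 gave the same counts. Over all genes tested, edgeR called 6.97% higher and 6.44% lower, which is also the background for the counts of the other steps below. All 5 log2 fold changes were above 0 with the TMM scaling used here, with a median of 0.28, against -0.002 over all genes tested, although Gapdh turned below 0 with total-count scaling. The sum over the 6 genes was 284 to 316 CPM in the controls and 405 to 442 CPM after IL-1β. The largest part of this rise was Pkm, with means of 37.2 and 115 CPM, whereas Gapdh was at 37.1 and 38.3 CPM.

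**Figure D2:**
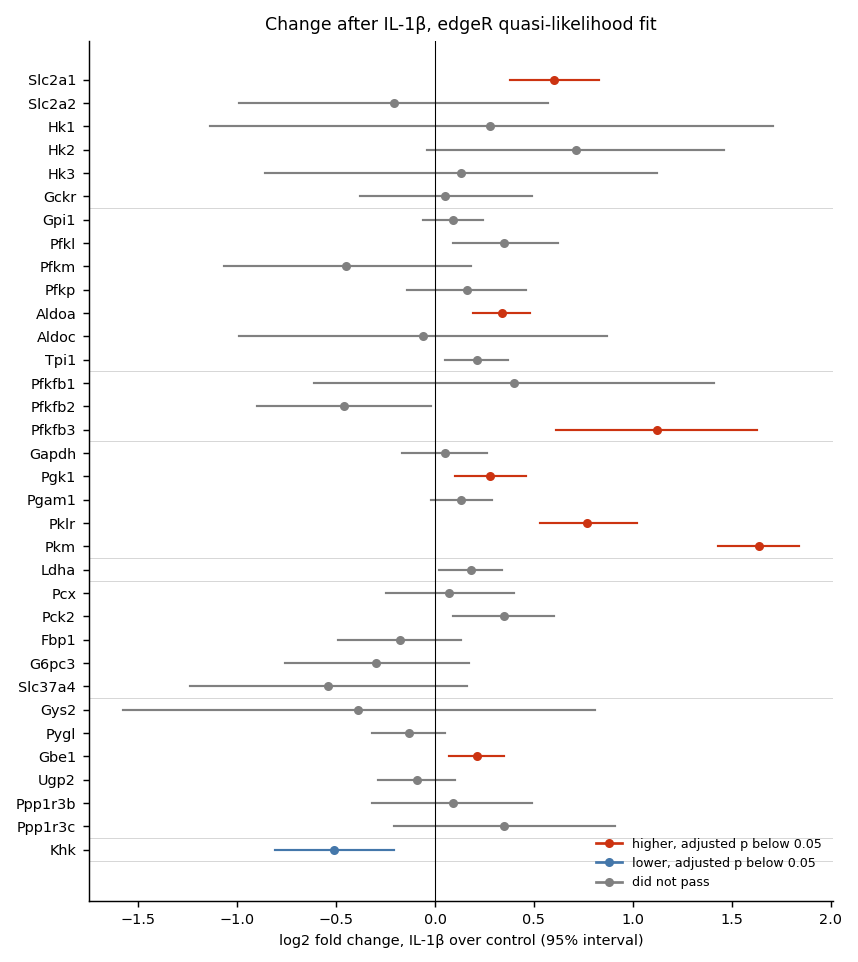
Log2 fold change of IL-1β over control for the 34 tested genes, grouped by step from glucose entry at the top to fructose at the bottom, with points at the edgeR estimate and lines over the 95% interval. The 7 genes that rose are red, Khk in blue is the 1 that fell, and Pkm lies farthest from 0 at 1.64.

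Glucose enters hepatocytes by facilitated transport and is trapped by phosphorylation. Slc2a1 encodes GLUT1, the high-affinity transporter found in most cells, and lies on chromosome 4 from 119108745 to 119137329. It was at 30.6, 32.9 and 40.6 CPM in the controls and at 53.2, 49.4 and 55.4 CPM after IL-1β. The lowest IL-1β sample lay above the highest control sample. The rise from 34.7 ± 5.24 to 52.7 ± 3.05 CPM (SD, n = 3 each) gave a log2 fold change of 0.60 (standard error 0.11, edgeR adjusted p = 0.000296). Slc2a2, encoding GLUT2, the main glucose transporter of hepatocytes in the liver, was at only 3.19, 2.42 and 2.32 CPM in the controls and 1.92, 2.02 and 2.88 CPM after IL-1β. These groups overlapped, with a log2 fold change of -0.21 and a 95% interval from -0.99 to 0.57 (edgeR adjusted p = 0.811).

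The transcripts of Hk1, Hk2 and Hk3 were counted at low levels. Hk2, the inducible hexokinase bound to mitochondria, had 2.44, 1.79 and 2.52 CPM in the controls and 4.17, 4.42 and 2.51 CPM after IL-1β. A pair of IL-1β samples stood above the controls and the other among them, and the log2 fold change of 0.71 (95% interval -0.04 to 1.46) did not pass (edgeR adjusted p = 0.242). Hk1, the housekeeping form, had 13, 0 and 13 counts in the controls and 7, 14 and 10 after IL-1β, too few to give its change a direction (95% interval -1.14 to 1.71). Hk3, a form typical of myeloid cells, was at 1.43 ± 0.546 and 1.56 ± 0.289 CPM (SD, n = 3 each), with a log2 fold change of 0.13 (edgeR adjusted p = 0.919). Kupffer cell and macrophage markers summed to 247 to 277 CPM in the controls and 254 to 283 CPM after IL-1β. Most of this sum was Cd68, with means of 192 and 184 CPM. Of the 10 tested markers, 7 had log2 fold changes above 0 and 3 below, with a median of 0.49, and edgeR called 0. Gckr, a regulatory protein of glucose phosphorylation in the liver, had a log2 fold change of 0.05 (95% interval -0.38 to 0.49, edgeR adjusted p = 0.924), which was -0.00059 with total-count scaling. Of these 6 entry genes, 1 rose and 0 fell by edgeR, with the same counts at an unadjusted p below 0.05 and by DESeq2.

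The commitment to glycolysis is set by phosphofructokinase, which is activated by fructose 2,6-bisphosphate made by the bifunctional PFKFB enzymes. Pfkfb3, the isoform with the highest kinase over phosphatase activity, lies on chromosome 2 from 11471431 to 11553929. It was at 3.85, 7.43 and 4.03 CPM in the controls and at 9.41, 12.8 and 11.3 CPM after IL-1β. Control replicate 2 stood above the other controls and still below the lowest IL-1β sample. The mean went from 5.10 ± 2.02 to 11.2 ± 1.69 CPM (SD, n = 3 each), a 2.18-fold rise (log2 fold change 1.12, standard error 0.25, edgeR adjusted p = 0.00225). Omission of any 1 sample left the log2 fold change between 0.95 and 1.51.

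The other bifunctional isoforms did not pass or could not be tested. Pfkfb2, the heart and kidney form, was at 13.6, 10.7 and 11.3 CPM in the controls and 9.51, 10.5 and 5.86 CPM after IL-1β. Its IL-1β samples were below the controls with no overlap, but its log2 fold change of -0.46 did not pass (unadjusted p = 0.039, edgeR adjusted p = 0.18). Pfkfb1, the liver form that glucagon switches through phosphorylation, had 7, 20 and 15 counts in the controls and 21, 14 and 18 after IL-1β (log2 fold change 0.40, 95% interval -0.61 to 1.41). Pfkfb4 was not tested, at 4, 5 and 5 control counts and 7, 9 and 13 IL-1β counts, so that its few counts were higher in every IL-1β sample. By edgeR, 1 of the 3 tested isoforms rose and 0 fell, with 1 and 1 at an unadjusted p below 0.05 (1 and 0 by DESeq2). Differences between the isoforms were compared only as the count ratio of Pfkfb3 to Pfkfb1.

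Between glucose 6-phosphate and the trioses, Aldoa passed and 6 genes did not. Aldoa encodes the aldolase of muscle and most other tissues and lies on chromosome 7 from 126795234 to 126800447. It was at 211, 210 and 218 CPM in the controls and at 261, 252 and 295 CPM after IL-1β. The controls were tightly grouped and all IL-1β samples exceeded them, at 213 ± 3.90 against 269 ± 22.8 CPM (SD, n = 3 each). The log2 fold change was 0.34 (standard error 0.070, edgeR adjusted p = 0.00126). Aldoc, the brain-type aldolase, had 36, 21 and 27 control counts and 6, 36 and 37 IL-1β counts, with no clear direction (log2 fold change -0.06, 95% interval -0.99 to 0.87).

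The 3 phosphofructokinase genes encode the liver, muscle and platelet subunits. Pfkl, the liver subunit, was at 22.5, 20.6 and 18.2 CPM in the controls and 26.5, 26.7 and 25.1 CPM after IL-1β. Its groups did not overlap, but its log2 fold change of 0.35 missed the threshold (unadjusted p = 0.011, edgeR adjusted p = 0.0727). Pfkl passed without control replicate 1, at 0.0375, but its edgeR adjusted p was as high as 0.258 with another sample left out. Pfkp, the platelet subunit, had a log2 fold change of 0.16 (edgeR adjusted p = 0.573) and its groups did not overlap, at 15.5 ± 0.701 and 17.3 ± 0.544 CPM (SD, n = 3 each). Of the 75-base stretches near the Pfkp ends, 27.2% lay in Pitrm1 on the opposite strand, named after its values were seen, whose log2 fold change was 0.17 (edgeR adjusted p = 0.445). Pfkm, the muscle subunit, was at 5.60 ± 2.04 and 4.13 ± 0.708 CPM (SD, n = 3 each), and the groups overlapped (log2 fold change -0.45, edgeR adjusted p = 0.414).

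Tpi1, the triose phosphate isomerase, was at 112, 102 and 104 CPM in the controls and at 122, 114 and 131 CPM after IL-1β. The groups were apart by little, and the log2 fold change of 0.21 did not pass (unadjusted p = 0.014, edgeR adjusted p = 0.0856). Tpi1 passed without control replicate 1, at 0.0347, but its edgeR adjusted p was as high as 0.311 with another sample left out. Gpi1, the glucose-6-phosphate isomerase, was at 130 ± 6.32 and 139 ± 4.15 CPM (SD, n = 3 each), with a log2 fold change of 0.09 (95% interval -0.06 to 0.24). In upper glycolysis 1 of 7 tested genes rose and 0 fell by edgeR, with 3 and 0 at an unadjusted p below 0.05. The sum over these 7 genes was 490 to 496 CPM in the controls and 559 to 616 CPM after IL-1β.

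Lactate dehydrogenase interconverts pyruvate and lactate. Ldha, the subunit of glycolytic tissues, was at 191, 172 and 170 CPM in the controls and at 216, 178 and 210 CPM after IL-1β. Its groups overlapped, and the log2 fold change of 0.18 did not pass (unadjusted p = 0.032, edgeR adjusted p = 0.156). It passed without control replicate 1 (edgeR adjusted p = 0.0381) and without IL-1β replicate 2 (0.0457), but the value was as high as 0.469 with another sample left out. Ldhb, the heart-type subunit, was not tested, at 4, 3 and 0 control counts and 3, 0 and 0 IL-1β counts.

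**Figure D3:**
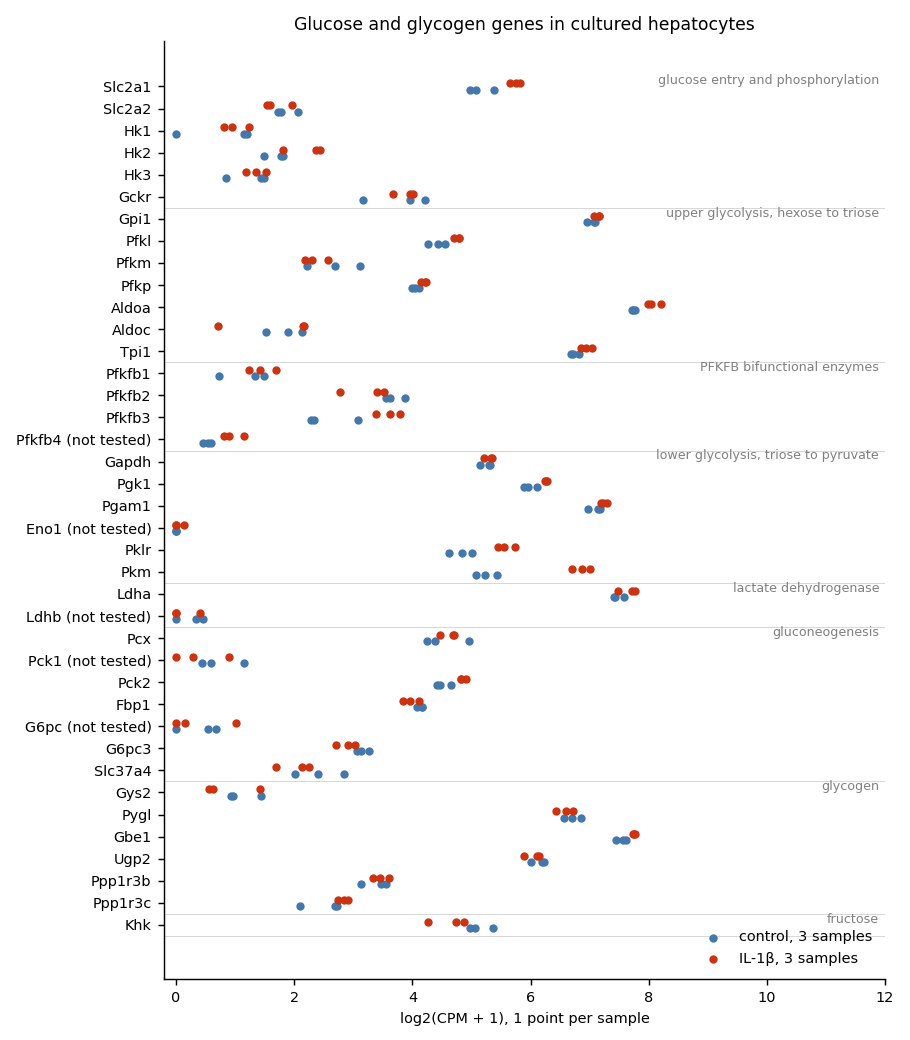
Level of each of the 39 genes as log2(CPM + 1), 1 point per sample, with control samples in blue and IL-1β samples in red, ordered by step. The 5 genes marked as not tested lie near 0, and Pkm shows the widest gap between the groups.

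Gluconeogenesis starts with pyruvate carboxylase in mitochondria and ends with glucose 6-phosphatase in the endoplasmic reticulum. No gene of this list passed in either direction by edgeR, with 5 of 7 tested and 1 higher and 0 lower at an unadjusted p below 0.05, and DESeq2 also called 0. The genes that define the fasted liver were close to absent in these cultures. Pck1, the cytosolic phosphoenolpyruvate carboxykinase, had 13, 4 and 5 counts in the controls and 2, 9 and 0 after IL-1β. G6pc, the catalytic subunit of liver glucose 6-phosphatase, had 0, 5 and 6 counts in the controls and 1, 0 and 11 after IL-1β. With 3 counts, taken as the limit of detection, equal to 0.269 to 0.321 CPM, no difference was detectable at this depth for either gene.

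Pck2, the mitochondrial carboxykinase, was at 24.2, 21 and 20.3 CPM in the controls and 27.2, 27.3 and 29.0 CPM after IL-1β. The groups did not overlap, but its log2 fold change of 0.35 did not pass (unadjusted p = 0.0097, edgeR adjusted p = 0.0661). Pck2 passed without control replicate 1, at 0.0286, but its edgeR adjusted p was as high as 0.21 with another sample left out. Pcx, pyruvate carboxylase, was at 22.5 ± 6.43 and 23.8 ± 2.28 CPM (SD, n = 3 each), with control replicate 1 the highest of all 6 samples (log2 fold change 0.07, 95% interval -0.25 to 0.40). Fbp1, fructose-1,6-bisphosphatase, was at 16.7 ± 0.625 and 14.7 ± 1.44 CPM (SD, n = 3 each), with a log2 fold change of -0.18 (edgeR adjusted p = 0.536).

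The final hydrolysis of glucose 6-phosphate needs a carrier into the endoplasmic reticulum and a phosphatase. Slc37a4, the carrier, had 66, 48 and 30 counts in the controls and 35, 35 and 24 after IL-1β, and its groups overlapped (log2 fold change -0.54, 95% interval -1.24 to 0.16, edgeR adjusted p = 0.37). G6pc3, the ubiquitous phosphatase subunit, was at 8.64, 7.34 and 7.76 CPM in the controls and 5.56, 7.2 and 6.51 CPM after IL-1β. Its IL-1β samples were below its controls, but the log2 fold change of -0.30 did not pass (edgeR adjusted p = 0.479).

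Glycogen is built by glycogen synthase and branching enzyme from UDP-glucose and is broken down by phosphorylase. Gbe1, the branching enzyme, lies on chromosome 16 from 70313949 to 70569720 and was at 174, 194 and 189 CPM in the controls and 211, 218 and 214 CPM after IL-1β. All IL-1β samples lay above all controls, at 186 ± 9.99 against 214 ± 3.76 CPM (SD, n = 3 each), a 1.16-fold rise (log2 fold change 0.21, standard error 0.068, edgeR adjusted p = 0.0433). The call was lost when any sample other than control replicate 2 was left out, at adjusted p of 0.0807 to 0.14, and also with total-count scaling, at 0.173.

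The other 5 tested glycogen genes did not pass, so 1 of 6 rose and 0 fell by edgeR, with the same counts at an unadjusted p below 0.05 and by DESeq2. Pygl, the liver glycogen phosphorylase, was at 115, 93.2 and 103 CPM in the controls and 95.6, 84.8 and 104 CPM after IL-1β, with overlapping groups (log2 fold change -0.13, 95% interval -0.32 to 0.05). Ugp2, which makes UDP-glucose, was at 69.5 ± 5.65 and 65.2 ± 6.33 CPM (SD, n = 3 each), with a log2 fold change of -0.09 (95% interval -0.29 to 0.10). Gys2, the liver glycogen synthase, had 10, 19 and 9 counts in the controls and 5, 5 and 18 after IL-1β, too few to set a direction (95% interval -1.58 to 0.81). Ppp1r3b and Ppp1r3c encode subunits that bring protein phosphatase 1 to glycogen, and their log2 fold changes were 0.09 (edgeR adjusted p = 0.861) and 0.35 (edgeR adjusted p = 0.49).

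Khk encodes ketohexokinase, which phosphorylates fructose and so feeds it into the lower part of glycolysis, and lies on chromosome 5 from 30921895 to 30931246. It was at 40.4, 32.2 and 30.3 CPM in the controls and 25.6, 18.2 and 28.4 CPM after IL-1β. The IL-1β samples were all below the controls, with a narrow gap between the nearest of them. The mean fell from 34.3 ± 5.35 to 24.1 ± 5.31 CPM (SD, n = 3 each), a log2 fold change of -0.51 (standard error 0.15, edgeR adjusted p = 0.0177). The call was lost without control replicate 1 (adjusted p = 0.0745) and without IL-1β replicate 2 (0.164).

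Across the whole set, 23 of 34 log2 fold changes were above 0 (67.6%), where 49.6% of all genes tested were above 0, and the median was 0.13. The 3 control and 3 IL-1β samples did not overlap in 16 of the 34 genes (47.1%), where 28.2% of all genes tested had no overlap in either direction. The summed level of the 39 genes was 1520 to 1540 CPM in the controls and 1710 to 1880 CPM after IL-1β. These counts describe the set and were not tested as a set.

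Isoenzyme pairs were compared by the log2 ratio of their counts inside each library, which does not depend on library scaling. With 3 samples against 3, the exact two-sided permutation test cannot give a p below 0.1, and p-values were adjusted over 9 ratios. The size of a ratio also reflects how well each 3′ end is captured, so only its change between groups was compared. Pkm to Pklr was 0.08, 0.63 and 0.61 in the controls and 1.15, 1.27 and 1.47 after IL-1β. The ratio was higher in every IL-1β sample, by 0.86 on the log2 scale (exact permutation p = 0.1, adjusted p = 0.3). Slc2a1 to Slc2a2 was 3.26, 3.76 and 4.13 in the controls and 4.79, 4.61 and 4.26 after IL-1β, again with no overlap and a difference of 0.84 (exact permutation p = 0.1, adjusted p = 0.3). This ratio rests on few counts of Slc2a2, 18 to 34 per sample, and the nearest samples of the groups lay close together.

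Pfkp to Pfkl was -0.39 ± 0.13 in the controls and -0.59 ± 0.01 after IL-1β (SD, n = 3 each). This ratio was lower in every IL-1β sample, by a small step of -0.20 (exact permutation p = 0.1, adjusted p = 0.3), and the difference was -0.12 without control replicate 3. Pfkfb3 to Pfkfb1 differed by 0.69 with overlapping groups (exact permutation p = 0.2, adjusted p = 0.36), and by 0.39 without control replicate 3 or 0.41 without IL-1β replicate 2. It rests on few counts of Pfkfb1, 7 to 21 per sample. The other 5 ratios, namely Hk2 to Hk1, Aldoc to Aldoa, Ldhb to Ldha, Pck2 to Pck1 and G6pc3 to G6pc, also overlapped and rest on genes with few or 0 counts, with exact permutation p-values from 0.2 to 1.

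**Figure D4:**
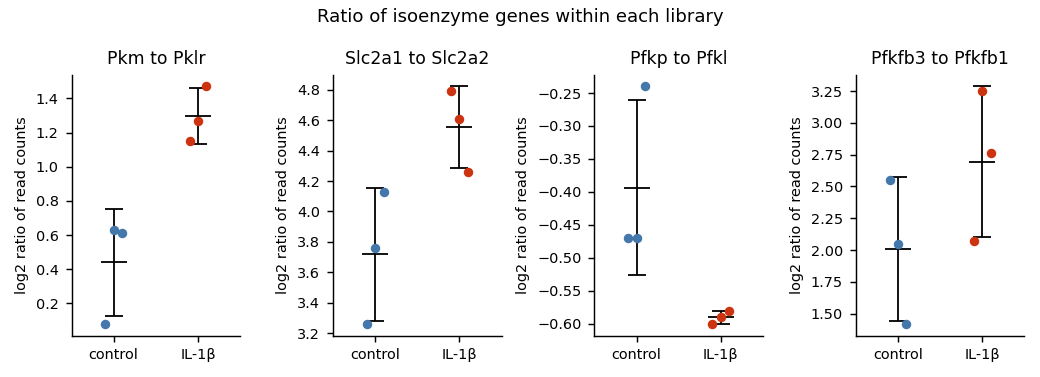
Log2 ratio of read counts of isoenzyme genes within each library, 1 point per sample (control blue, IL-1β red), with mean and SD as bars; the vertical axes differ between panels and do not start at 0. Pkm to Pklr and Slc2a1 to Slc2a2 are higher and Pfkp to Pfkl lower in every IL-1β sample, while Pfkfb3 to Pfkfb1 overlaps.

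Genes of neighboring pathways were read from the same fit, in which 6.97% of all genes tested rose and 6.44% fell. Among 13 further glycolytic paralogs and accessory enzymes, 6 could be tested, and edgeR and DESeq2 each called 0, with 1 higher and 0 lower at an unadjusted p below 0.05. The brain and muscle enolases and the transporters GLUT3 and GLUT4 were either untested or did not pass. Of the 14 tested glycogen enzymes and regulators outside the set that are reported here, 2 rose. Pgm2, a phosphoglucomutase, was at 139 ± 13.6 and 172 ± 9.19 CPM (SD, n = 3 each), with a log2 fold change of 0.31 (edgeR adjusted p = 0.00683). Gaa, the lysosomal acid glucosidase that degrades glycogen, was at 44.8 ± 2.04 and 57.8 ± 1.38 CPM (SD, n = 3 each), with a log2 fold change of 0.37 (edgeR adjusted p = 0.00708). The IL-1β samples of both genes lay above all controls.

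Pyruvate and lactate are carried by transporters and consumed by the pyruvate dehydrogenase complex. Of 16 tested genes of this list, 2 rose and 2 fell (12.5% in each direction, against 6.97% and 6.44% of all genes tested). Slc16a1, encoding the lactate and pyruvate transporter MCT1, was at 109, 111 and 105 CPM in the controls and 261, 239 and 263 CPM after IL-1β. The groups were far apart, with a log2 fold change of 1.23 (standard error 0.071, edgeR adjusted p = 1.09e-12). Pdhx, a structural component of pyruvate dehydrogenase, rose by 0.51 (edgeR adjusted p = 0.00119). Pdk2, a kinase that inactivates this complex, had a log2 fold change of -0.83 (edgeR adjusted p = 0.0181), which did not pass without control replicate 2 (0.16) or without IL-1β replicate 2 (0.0985). The second gene that fell was Mpc2, a subunit of the mitochondrial pyruvate carrier, at -0.30 (edgeR adjusted p = 0.0449), which DESeq2 did not call (adjusted p = 0.0584) and which was also lost when any sample other than control replicate 2 was left out (0.0749 to 0.229).

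The pentose phosphate pathway leaves glycolysis at glucose 6-phosphate and yields NADPH and ribose. All 8 of its genes were tested, 4 rose and 0 fell, with 4 and 0 at an unadjusted p below 0.05 and by DESeq2. The 4 that rose are 50% of the list, against 6.97% of all genes tested. Taldo1, transaldolase, was at 295, 300 and 303 CPM in the controls and 499, 506 and 504 CPM after IL-1β. Both groups were tight and wide apart, with a log2 fold change of 0.75 (standard error 0.061, edgeR adjusted p = 8.87e-10). Pgd, 6-phosphogluconate dehydrogenase, rose by 0.42 on the log2 scale (edgeR adjusted p = 1.63e-05). H6pd, the hexose-6-phosphate dehydrogenase of the endoplasmic reticulum, rose by 0.45 (edgeR adjusted p = 2.15e-05). The entry enzyme G6pdx was at 5.80 ± 1.07 and 13.5 ± 0.567 CPM (SD, n = 3 each), with a log2 fold change of 1.21 (edgeR adjusted p = 9.54e-05). The sum over the 8 genes was 1260 to 1290 CPM in the controls and 1740 to 1790 CPM after IL-1β.

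**Figure D5:**
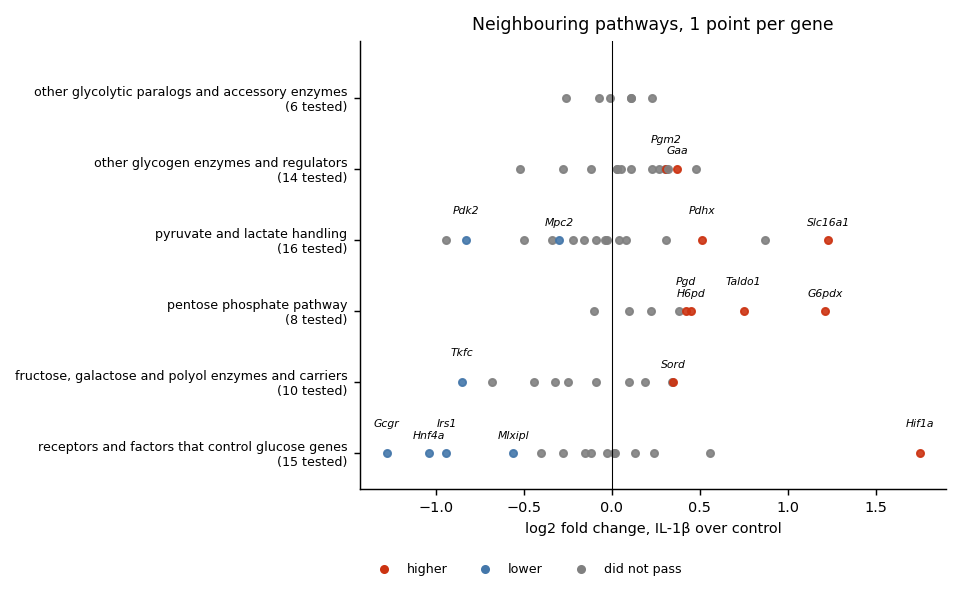
Log2 fold change of IL-1β over control for the tested genes of 6 neighboring lists, 1 point per gene, with genes that rose in red, genes that fell in blue and the names of both printed. Hif1a lies farthest to the right at 1.75 and Gcgr farthest to the left at -1.28.

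Among 15 receptors and transcription factors that control glucose genes, 1 rose and 4 fell (6.67% and 26.7%, against 6.97% and 6.44% of all genes tested). Hif1a, encoding the oxygen-regulated subunit of a factor that binds the hypoxia response element, had a log2 fold change of 1.75 (edgeR adjusted p = 5.3e-14). Mlxipl, encoding the factor ChREBP that binds the carbohydrate response element, was at 118, 121 and 121 CPM in the controls and 74.1, 89.6 and 80.5 CPM after IL-1β. It fell in every IL-1β sample, with a log2 fold change of -0.56 (standard error 0.082, edgeR adjusted p = 1.61e-05). Hnf4a, a nuclear receptor of hepatocyte identity, had a log2 fold change of -1.04 (edgeR adjusted p = 1.62e-09). The other 2 that fell were Gcgr, the glucagon receptor, at -1.28 (edgeR adjusted p = 9.45e-05), and Irs1, an adaptor of the insulin receptor, at -0.94 (edgeR adjusted p = 0.00837). No link between the genes of this list and the 39 genes was tested.

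Libraries held 9538741 to 11105408 counts each, and 16189 of the 23282 genes had at least 1 count. The labelled cell type was checked by its markers, and albumin (Alb) was at 16200 ± 516 CPM in the controls and 14100 ± 577 CPM after IL-1β (SD, n = 3 each). Of 9 tested hepatocyte markers, edgeR called 0 higher and 8 lower, DESeq2 7 lower and limma 6 lower. Over all genes tested, edgeR called 6.97% higher and 6.44% lower. The call of Apoa1, whose groups overlapped, was lost with DESeq2 (adjusted p = 0.465) and limma (adjusted p = 0.0604). It was also lost without control replicate 1 (edgeR adjusted p = 0.395) and without any 1 of the IL-1β samples (0.0674 to 0.252). The call of Alb was lost with limma (adjusted p = 0.0882) and without control replicate 2 (edgeR adjusted p = 0.0744) or IL-1β replicate 1 (edgeR adjusted p = 0.0894). The summed list of 10 went from 21900 to 22100 CPM down to 18100 to 19100 CPM. Of the urea cycle markers, Ass1 was near the limit of detection in both groups, at 0.717 ± 0.466 CPM in the controls, and Cps1 was low, at 2.65 ± 0.765 CPM (SD, n = 3 each). Kupffer cell and macrophage markers were led by Cd68, Ctss and Cd5l, and edgeR and DESeq2 called 0 of 10 tested, with 3 higher and 0 lower at an unadjusted p below 0.05. The log2 fold changes of Cd68, Ctss and Cd5l were the 3 below 0, and the other 7 were above 0, with a median of 0.49 over the 10. Of 7 neutrophil markers, 5 were at 0 in all samples, and the sum was 0 to 0.179 CPM in the controls and 2.24 to 4.83 CPM after IL-1β, almost all from S100a8. By edgeR, endothelial, stellate and cholangiocyte lists had 1, 0 and 0 genes higher and 2, 0 and 1 lower, of 7, 3 and 3 tested. DESeq2 gave 1, 0 and 1 higher and 2, 0 and 1 lower. At an unadjusted p below 0.05, edgeR had 1, 0 and 1 higher and 3, 0 and 1 lower. In bulk RNA, a change in the number of cells of a type and a change in RNA per cell cannot be told apart, and the part of these marker changes in the values of the 39 genes was not tested.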

How the data were processed

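QuantSeq 3′ mRNA-Seq of primary hepatocytes was analyzed in 6 samples, namely 3 untreated cultures and 3 cultures kept with recombinant IL-1β for 24 h. The deposited table holds raw read counts per gene, which the authors made from single-end reads of 75 nt. Alignment with Bowtie2 to GRCm38 (mm10) and analysis with edgeR are named in the submitters' processing notes, and the counting tool, its strand setting and its handling of multi-mapping reads were not given in the sources used here. The same table has 6 columns of normalized values per sample and columns of group averages, fold changes and p-values made by the authors, none of which was used. Every row names a gene. The design text gives 2 samples per group but lists 3, and all 3 were used.

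Raw counts were tested in R 4.3.3 with edgeR 4.0.16 (filterByExpr, TMM scaling, quasi-likelihood test, no covariates), with Benjamini-Hochberg adjustment over 11657 genes and a threshold of 0.05. CPM are counts scaled by library size with TMM factors. The standard error is the log2 fold change divided by the square root of F. Ratios of isoenzyme counts were compared by exact two-sided permutation tests in scipy 1.17.1, with 0.5 counts added where a count was 0. The script was tested on simulated data.

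The 39 genes and all lists were chosen with earlier results of these data known, so the counts are descriptions. All tested genes of the set were named. Of each neighboring list, at most 3 genes with the smallest adjusted p below 0.05 were named, and G6pdx, Mpc2, Gcgr and Irs1 were added after their values were seen. A gene of the glycogen list outside the set is not reported here. For marker lists, the 3 most abundant genes were considered. Of the genes tested, Hk1, Hk3, Aldoc, Pfkfb1 and Gys2 passed the filter with fewer than 3 samples of a group over its limit, and none of these passed the test.

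Reads shared with other genes were estimated from GENCODE M21 transcripts by comparing each 75-base stretch in the last 500 bases of a gene's transcripts with all other genes. On this measure, 25 of the 39 genes shared no stretch, and 6 shared at least 10%. Rows of 37 genes covered at least 80% of the annotated gene, with Eno1 (1.18%) and Ldha (69.4%) the exceptions. Promoters came from RefSeq (GRCm38.p6).

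Replicates differed beyond sampling noise in every pair (chi-square per degree of freedom 4.16 to 10), so none was merged. Samples with the same number deviated from their group means with correlations of 0.062, 0.0079 and 0.0038, so numbers were not used as pairs. Alternatives were DESeq2 1.42.0, limma 3.58.1 and Student's test on log2(CPM + 1), scaling by upper quartile or total counts, the filter dropped or raised to 10 counts in all samples, a block for the replicate number, removal of Rn45s (11.7% to 14.2% of counts), stricter thresholds and each sample left out. Limits from 3 counts cover counting error only.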

Additional observations from a re-analysis of the deposited data

How the results depend on the processing

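All 8 calls among the 39 genes (7 higher, 1 lower) were kept with DESeq2, without a filter, with a minimum of 10 counts in all samples, with limma, without Rn45s and with a block for the replicate number (7 and 1), and the block changed no call among these genes. Upper-quartile and total-count scaling each gave 5 higher and 1 lower, losing Pgk1 (adjusted p 0.0545 and 0.105) and Gbe1 (0.0874 and 0.173). They moved the median of all genes from -0.002 to -0.03 and -0.055, and total counts moved the median of the set to 0.08. Student's test on log2(CPM + 1), which shares no variance between genes, called 1 higher (Pkm) and 0 lower of the set, with 11 and 0 at an unadjusted p below 0.05, and 547 genes in all in place of 1563. By construction, an adjusted p below 0.01 left 5 higher and 0 lower, and a fold change over 1.5 left 4 and 0. With each sample left out, 5 to 9 genes were higher and 0 to 1 lower, 0 without control replicate 1 and without IL-1β replicate 2, where 1 and 2 were lower at an unadjusted p below 0.05. The cause of these differences was not tested. With total-count scaling the sign turned for Gckr (-0.00059) and Gapdh (-0.0085). With a sample left out it turned for genes near 0, with log2 fold changes of -0.21 to 0.31 for Gckr, -0.35 to 0.38 for Aldoc, -0.0084 to 0.094 for Gapdh, -0.31 to 0.73 for Hk1, -0.16 to 0.33 for Hk3, -0.065 to 0.33 for Pcx, -0.039 to 0.18 for Ppp1r3b and -0.077 to 0.022 for the macrophage marker Ctss. The log2 fold changes of the other genes named with values kept their sign in each alternative in which they were tested. With a sample left out, the difference in ratio changed sign for Hk2 to Hk1 (-1.34 to 0.88), Aldoc to Aldoa (-1.18 to 0.06) and G6pc3 to G6pc (-1.13 to 1.25), and kept it for the other 6. In other lists, Student's test called 3 hepatocyte markers lower in place of 8, 1 higher in place of 2 for glycogen, 1 and 1 in place of 2 and 2 for pyruvate and lactate, and 0 in place of 1 and 1 for fructose, and it kept 4 higher in the pentose phosphate pathway. Genes with under about 1 CPM, such as Pck1, G6pc and Ldhb, are limited by depth.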

Other observations

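Enzymes and carriers of fructose, galactose and polyols outside the 39 genes were read from the same fit. Of 10 tested, 1 rose and 1 fell (10% in each direction, against 6.97% and 6.44% of all genes tested), with 2 higher and 4 lower at an unadjusted p below 0.05. Tkfc, the triokinase that acts after ketohexokinase in fructose breakdown, was at 39.9, 46.2 and 55.3 CPM in the controls and 24.8, 24.8 and 28.9 CPM after IL-1β. The groups did not overlap, and the log2 fold change was -0.85 (standard error 0.12, edgeR adjusted p = 1.39e-05). Sord, sorbitol dehydrogenase, which makes fructose from sorbitol, was at 111, 127 and 113 CPM in the controls and 144, 151 and 151 CPM after IL-1β. All its IL-1β samples were above its controls, with a log2 fold change of 0.35 (standard error 0.075, edgeR adjusted p = 0.00188). Under Student's test neither passed, at adjusted p of 0.0811 and 0.0762.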
